A study of Mus musculus with 576 samples.

Results

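The chemokines Cxcl12, Cxcl13 and Cxcl14, their receptors and the midkine family, 7 of the 36658 genes in the count tables, were followed by line and cell class in single cells of the mouse dorsal pancreas at embryonic day 12.5. They were taken by symbol as a list of ligands, the Cxcl12 receptors Cxcr4 and Ackr3, and the heparin-binding growth factors midkine (Mdk) and pleiotrophin (Ptn). All 7 symbols were found in the tables of all 3 lines. The question was which cells hold the ligand transcripts, which hold the receptor transcripts, and whether the mesenchyme of the 3 lines differs in them.

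Chemokines of the CXC family are small secreted proteins that bind G protein-coupled receptors and set the direction in which cells move. Cxcl12 signals through Cxcr4, while Ackr3 binds Cxcl12 as an atypical receptor that takes up the ligand and does not couple to G proteins in the usual way. Mdk and Ptn form a family of their own, bind heparan and chondroitin sulphate chains, and act through receptor phosphatases, LDL receptor-related proteins, syndecans, integrins and nucleolin. Signals from the mesenchyme around the pancreatic bud are known to support the growth and branching of the epithelium.

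GFP-positive cells were sorted into 96-well plates and sequenced by Smart-seq2, a full-length single-cell protocol, with 2 plates for each line and 576 cells in all. In Nkx2.5-Cre;mTmG and Nkx3.2-Cre;mTmG embryos, Cre is expressed from the Nkx2.5 or Nkx3.2 locus and switches on membrane GFP in cells that have expressed it and in their descendants. Prox1-GFP embryos carry GFP under Prox1 regulatory sequences on a transgene. No treatment was given, and all lines were on a C57BL/6J background with both sexes mixed. The labels do not name the embryos, so each line was treated as 1 sample with 2 plates. For that reason no p-value was computed between lines or classes. The exact 95% intervals given below (Poisson for counts, binomial for shares of cells) cover counting error only. For counts this is the error of counted reads, which include amplified copies of 1 molecule, so that single plates can lie outside the interval. Plates and library numbers are nested in lines, so line and batch cannot be told apart.

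After the cell filter 549 cells remained, with median counts per cell of 1056674 (Nkx2.5), 896115 (Nkx3.2) and 808006 (Prox1). Clusters were made without the 7 genes and their pathway genes and were named from marker lists. Mesenchyme-like cells numbered 87 and 81 on plates 6A and 6B (Nkx2.5), 92 and 76 on plates 7A and 7B (Nkx3.2), and 33 and 44 on plates 8A and 8B (Prox1). Mesothelial-like cells (Upk3b) numbered 5 from Nkx2.5 and 23 from Nkx3.2 embryos. The Prox1 line also gave 87 epithelial-like cells and 18 endocrine-like cells, and 3 further Prox1 cells with immune, endocrine or epithelial markers out of place were left out, so that 546 cells were used. In the Prox1 line GFP marks mainly epithelium, and the study also shows mesenchymal cells positive for Prox1-GFP by staining. The line held 77 cells whose 8 mesenchyme markers summed to 4108 CPM (counts scaled to the summed library size). The same sum was 24.99 CPM in its epithelial-like cells. The 77 cells, sorted as GFP-positive and so not a sample of all mesenchyme, are called below the Prox1 mesenchyme.

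Genes are placed on GRCm38. Cxcl12 (ENSMUSG00000061353) lies at chr6:117168535-117181367 on the plus strand, Cxcl13 (ENSMUSG00000023078) at chr5:95956951-95961068 on the plus strand and Cxcl14 (ENSMUSG00000021508) at chr13:56288643-56296551 on the minus strand. Cxcr4 (ENSMUSG00000045382) at chr1:128588199-128592293 on the minus strand and Ackr3 (ENSMUSG00000044337) at chr1:90203980-90216751 on the plus strand share a chromosome. Mdk (ENSMUSG00000027239) spans chr2:91929805-91932297 and Ptn (ENSMUSG00000029838) spans chr6:36714929-36810220, both on the minus strand. Values are counts over the whole gene, so that they cannot be placed on an exon, an intron or a UTR.

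The 4 genes whose levels separated the cell classes are shown with 200 bases of promoter, from 250 to 51 bases before the RefSeq transcription start (GRCm38.p6, 5′ to 3′ along the strand of the gene). Capitals mark the GC box GGGCGG or the E box CANNTG on either strand. The windows are chr6:117168285-117168484 for Cxcl12, chr5:95956689-95956888 for Cxcl13, chr1:90203730-90203929 for Ackr3 and chr6:36810230-36810429 for Ptn.
Cxcl12: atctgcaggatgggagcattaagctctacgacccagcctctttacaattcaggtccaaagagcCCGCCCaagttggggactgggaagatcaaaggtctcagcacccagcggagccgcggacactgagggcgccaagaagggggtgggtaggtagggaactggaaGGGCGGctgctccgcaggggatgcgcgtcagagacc
Cxcl13: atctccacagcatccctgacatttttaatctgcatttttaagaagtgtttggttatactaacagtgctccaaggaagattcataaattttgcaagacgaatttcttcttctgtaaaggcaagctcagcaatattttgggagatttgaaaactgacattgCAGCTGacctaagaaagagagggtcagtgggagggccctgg
Ackr3: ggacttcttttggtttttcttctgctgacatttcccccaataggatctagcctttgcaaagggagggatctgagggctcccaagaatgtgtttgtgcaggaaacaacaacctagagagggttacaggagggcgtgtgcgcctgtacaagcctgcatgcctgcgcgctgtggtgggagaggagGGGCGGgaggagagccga
Ptn: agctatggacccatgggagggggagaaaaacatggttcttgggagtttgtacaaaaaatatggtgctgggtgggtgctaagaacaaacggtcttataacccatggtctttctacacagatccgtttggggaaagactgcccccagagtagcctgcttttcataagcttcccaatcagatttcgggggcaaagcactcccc
The Cxcl12 window held 2 GC boxes and the Ackr3 window held 1, while the Cxcl13 window held 1 E box and the Ptn window held neither motif. Over 32851 promoter windows of the same length, 24.6% held a GC box and 59.05% held an E box, so that each of these motifs is common.

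Cxcl12, the ligand of Cxcr4 and Ackr3, was found in the mesenchyme of all 3 lines, at levels that differed between them. In the Nkx3.2 mesenchyme the summed counts came to 414 and 478 CPM on plates 7A and 7B. In the Nkx2.5 mesenchyme they came to 128.1 and 169.6 CPM on plates 6A and 6B, below both Nkx3.2 plates. In the Prox1 mesenchyme they came to 355 and 163.7 CPM on plates 8A and 8B, a spread that reached from the Nkx2.5 range to below the Nkx3.2 range. The order of the pooled levels was thus Nkx3.2 (439 CPM, 436 to 442), Prox1 (241 CPM, 237 to 245) and Nkx2.5 (148.1 CPM, 146.3 to 149.9), of which the Prox1 value does not stand apart from the Nkx2.5 plates. The mesothelial-like cells of the Nkx3.2 line stood at 372 and 416 CPM, close to the mesenchyme of the same line.

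**Figure D1:**
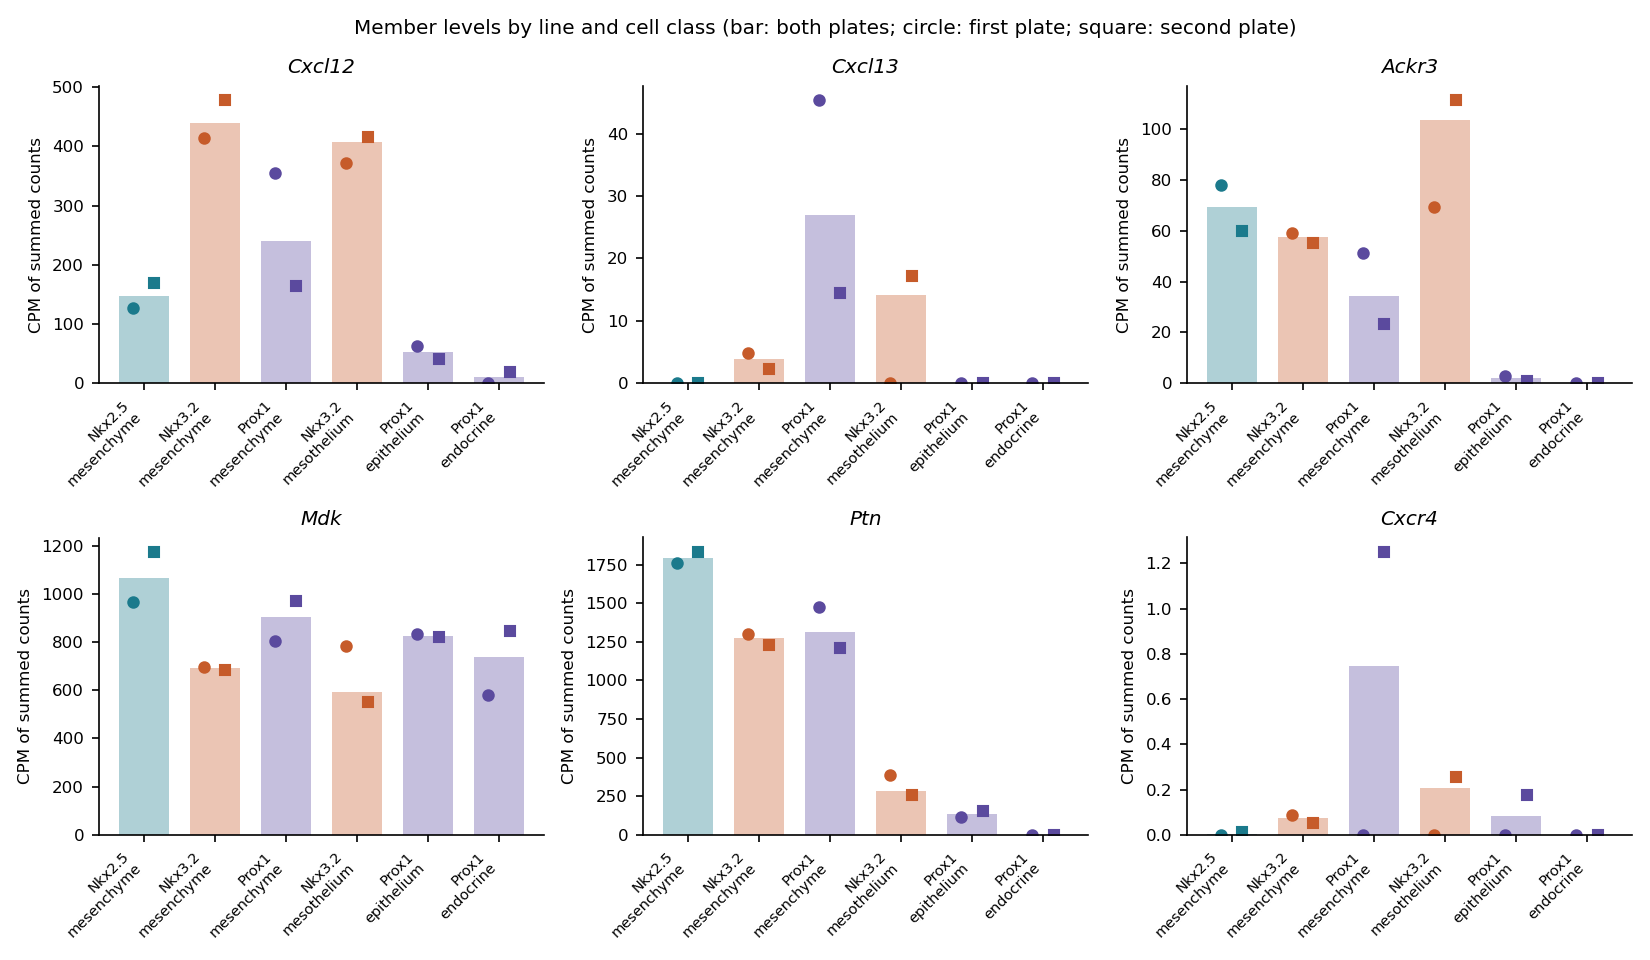
Levels of 6 of the genes in CPM of summed counts (y axis) in each line and cell class (x axis); bars give both plates together, circles the first plate and squares the second. Cxcl12 is at 414 and 478 CPM on the Nkx3.2 mesenchyme plates, Ptn is highest in mesenchyme, lower in epithelium and near 0 in endocrine cells, Mdk is present in each class, and Cxcr4 is at 0.746 CPM or less in each class.

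The share of cells with a Cxcl12 count was also highest in the Nkx3.2 mesenchyme. At least 1 count was found in 83.9% of Nkx3.2 mesenchyme cells (77.5 to 89.1%), 77 of 92 on plate 7A and 64 of 76 on plate 7B. It was found in 51.8% of Nkx2.5 mesenchyme cells (43.96 to 59.5%), 41 of 87 on plate 6A and 46 of 81 on plate 6B. After each cell was thinned to 100000 counts the shares were 79.8% and 47.02%. In the Prox1 mesenchyme 50.6% of the cells held it (39 of 77, 39.005 to 62.2%). The median cell stood at 241 CPM in the Nkx3.2 mesenchyme, at 2.71 CPM in the Nkx2.5 mesenchyme and at 15.6 CPM in the Prox1 mesenchyme, and the highest single cell reached 2862, 1374 and 1374 CPM. Transcript was thus found in most Nkx3.2 cells, and in about as many cells as not in the remaining lines. The Nkx2.5 cells were sequenced more deeply but had fewer genes detected, with a median of 5839 genes per passing cell against 7329 in the Nkx3.2 line, and the part of this in the Cxcl12 result was not tested.

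**Figure D2:**
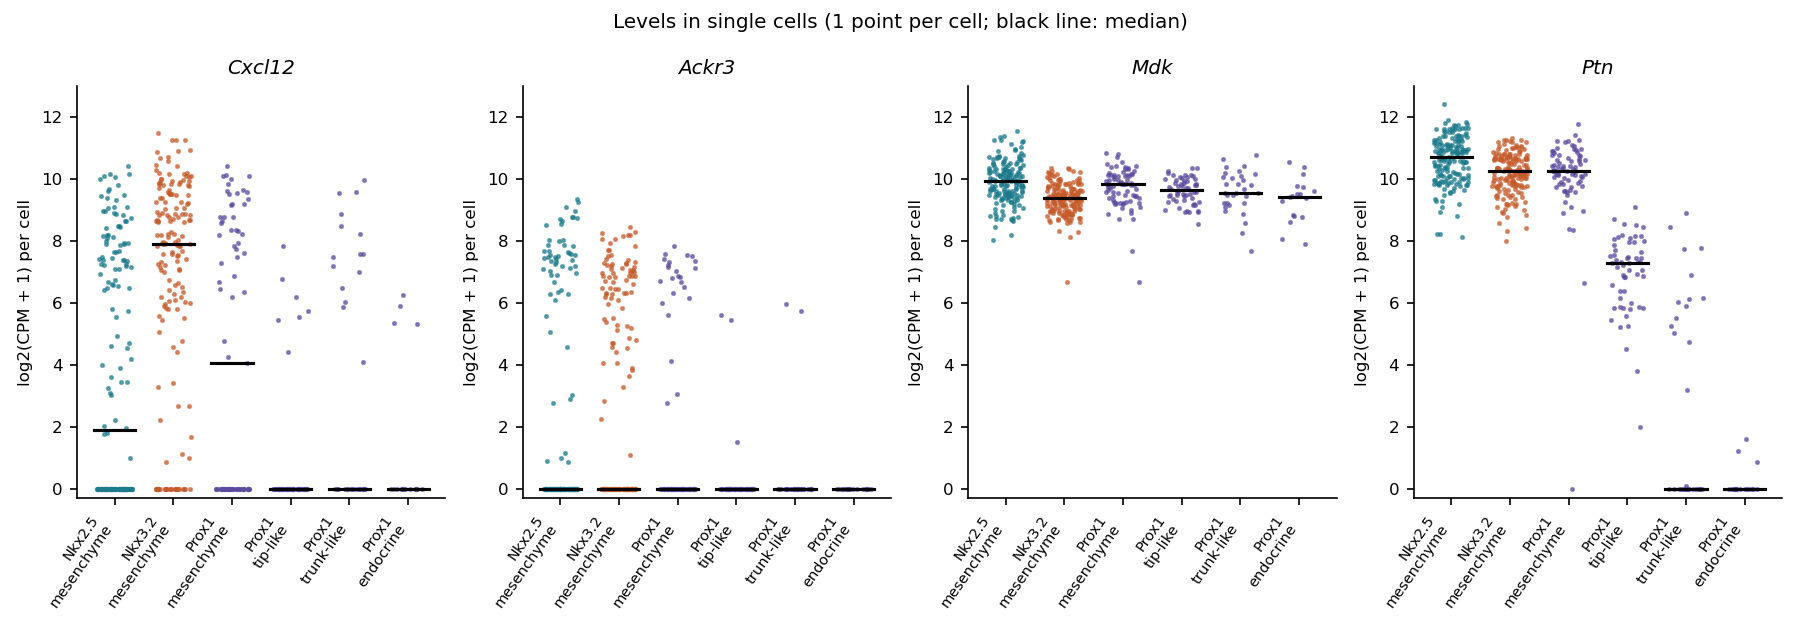
Levels in single cells, log2(CPM + 1) on the y axis, by line and class on the x axis, with 1 point per cell and the median as a black line. Cxcl12 and Ackr3 split into cells at 0 and cells well above it, Mdk is above 0 in each of the cells drawn, and Ptn is at 0 in 16 of 31 trunk-like cells while all 56 tip-like cells hold it.

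Between the lines, Cxcl12 was 2.96-fold higher in the Nkx3.2 than in the Nkx2.5 mesenchyme, and 2.44- to 3.73-fold higher over the 4 pairs of plates. A gene was called different where it reached 10 CPM in either group and differed at least 2-fold in the same direction overall and in every plate pair. By this rule 1 of the 7 genes, Cxcl12, was called higher in the Nkx3.2 mesenchyme, beside 1.97% of the 10134 genes tested, and none was called higher in the Nkx2.5 mesenchyme, beside 1.3% (3.28% in either direction). The lines also differ in which mesenchymal clusters they fill: 63 of 74 cells in cluster 2 (Igf1, Pcp4l1) came from the Nkx2.5 line, and 30 of 37 in cluster 5 (Acta2, Tagln, Kcnj8) and 26 of 31 in cluster 8 (Adgrf5, Htra3) came from the Nkx3.2 line. Over clusters 0, 1, 4 and 6, which hold 15 or more cells of both lines, the levels were 116.3 and 321 CPM, a 2.76-fold difference with plate pairs from 1.91- to 4.14-fold, so that the call was lost there.

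Within clusters, Cxcl12 was highest in the Nkx3.2 cells of cluster 5, whose leading genes Acta2, Tagln and Kcnj8 belong to contractile and mural cells. There it reached 1038 CPM (1026 to 1051) and was found in 27 of 30 cells. The other Nkx3.2 clusters lay between 207 CPM (cluster 0, Syt6 and Grik1) and 478 CPM (cluster 4, Megf10). In the Nkx2.5 line the clusters ran from 34.6 CPM in cluster 6 (Kazald1, Robo2) to 260 CPM in cluster 4. The widest gap between lines within 1 cluster was in cluster 6, at 34.6 CPM in 18 Nkx2.5 cells and 448 CPM in 17 Nkx3.2 cells. That is a 12.98-fold difference, with plate pairs from 8.50- to 163.1-fold. These pairs are uneven, because most of the library of the Nkx2.5 cells of this cluster lay on the same plate. Cxcl13, with no count in either line there, gave pairs from 0.0891- to 2.25-fold from library size alone. The highest Cxcl12 pair used the floor of 3 counts on the smaller Nkx2.5 plate. Of the 17 Nkx3.2 cells 1 held 40.6% of the Cxcl12 counts, and the level without it was 287.5 CPM. In clusters 0, 1 and 4 the same ratio was 1.83-, 2.84- and 1.84-fold, with some plate pairs under 2-fold and, in cluster 4, 1 of 4 pairs in the opposite direction.

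**Figure D3:**
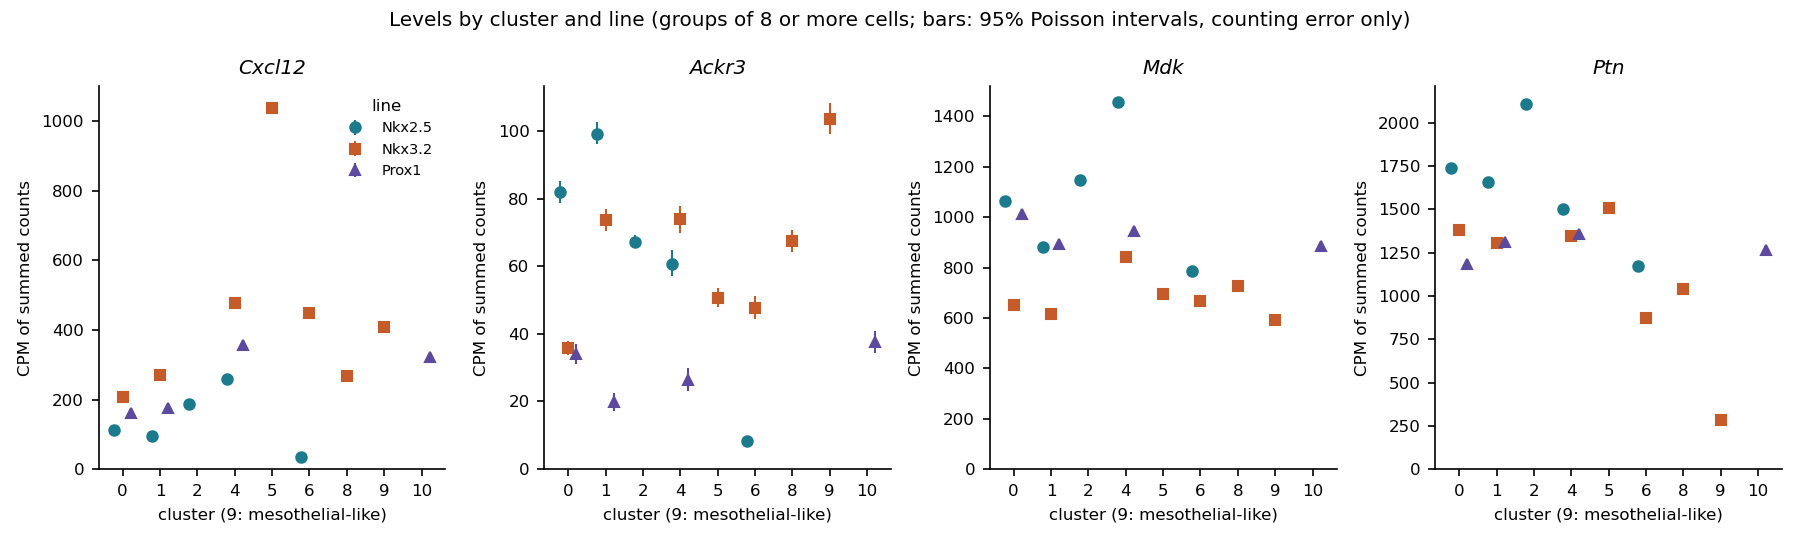
Levels of Cxcl12, Ackr3, Mdk and Ptn in CPM of summed counts (y axis) by mesenchymal cluster (x axis) and line (symbol). Cluster 9 is mesothelial-like, and groups of 8 or more cells are drawn. Bars are 95% Poisson intervals, which cover the counting error of reads only. The Nkx3.2 cells of cluster 5 hold the highest Cxcl12 level, 1038 CPM, and the Nkx2.5 cells of cluster 6 hold the lowest of both Cxcl12 (34.6 CPM) and Ackr3 (8.20 CPM).

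In the Prox1 line, whose cells of different class came from the same plates, Cxcl12 stood at 62.3 and 41.3 CPM in the epithelial-like cells and at 355 and 163.7 CPM in the mesenchyme. The mesenchyme was 4.58-fold higher, and 5.70- and 3.97-fold higher on plates 8A and 8B. On plate 8B 1 of 37 epithelial-like cells held 53.3% of the counts, and the level without it was 19.7 CPM. By the same rule 4 of the 7 genes (Cxcl12, Cxcl13, Ackr3 and Ptn) were called higher in the Prox1 mesenchyme, beside 10.6% of the 10800 genes tested, and none was called higher in the epithelium, beside 11.2% (21.8% in either direction). Cxcl13 and Ackr3 reached 10 CPM in the mesenchyme alone and so could be called in that direction only.

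The epithelial-like Cxcl12 counts lay mainly in the trunk-like cells. The epithelial-like class consists of cluster 3, with 56 cells, named tip-like and with the tip marker Cpa1 among its leading genes, and cluster 7, with 31 cells named trunk-like from its duct and progenitor markers. This comparison was added after the levels had been seen. Trunk-like cells stood at 132.4 and 174.1 CPM on plates 8A and 8B, and tip-like cells stood at 13.995 and 5.07 CPM. Trunk-like cells were 15.7-fold higher over both plates and 9.46- and 34.4-fold higher by plate. A count was found in 15 of 31 trunk-like cells (48.4%, 30.2 to 66.9%) and in 7 of 56 tip-like cells (12.5%, 5.18 to 24.1%). Of the 9 trunk-like cells on plate 8B, 1 held 58.9% of the counts, and without it that plate stood at 79.7 CPM. The trunk-like level was below that of the Prox1 mesenchyme on plate 8A (355 CPM) and above it on plate 8B (163.7 CPM), so that the mesenchyme excess over the whole epithelial-like class did not hold against trunk-like cells on both plates. Cxcl12 was the 1 of the 7 genes called higher in trunk-like cells, beside 5.47% of the 10402 genes tested (8.93% in either direction).

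Mesenchyme markers were near 0 in the trunk-like cells. The 8 genes of the mesenchyme list summed to 1.31 CPM there, with none over 10 CPM and 3 at 0. In the tip-like cells they summed to 36.1 CPM, and the highest tip-like cell reached 809 CPM. In the 15 trunk-like cells with Cxcl12 the list summed to 1.38 CPM and ranged from 0 to 6.13 CPM per cell, and in the 16 without it to 1.25 CPM. The trunk list summed to 912 CPM in the cells with Cxcl12 and to 651 CPM in those without, at median depths of 732328 and 785929 counts. The 8 genes of the endocrine list, led by Neurog3, summed to 163.2 CPM in the cells with Cxcl12 and to 500 CPM in those without. The median cell went the other way, at 69.8 and 1.38 CPM, and the highest cell without Cxcl12 reached 5065 CPM. The 7 genes of the mural list, led by Notch3, summed to 44.995 CPM in the cells with Cxcl12, with 3 genes over 10 CPM, and to 28.2 CPM in those without, with 1 gene over 10 CPM. The part of this in the Cxcl12 counts was not tested. The cells are few, so that these sums are given as a description.

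**Figure D4:**
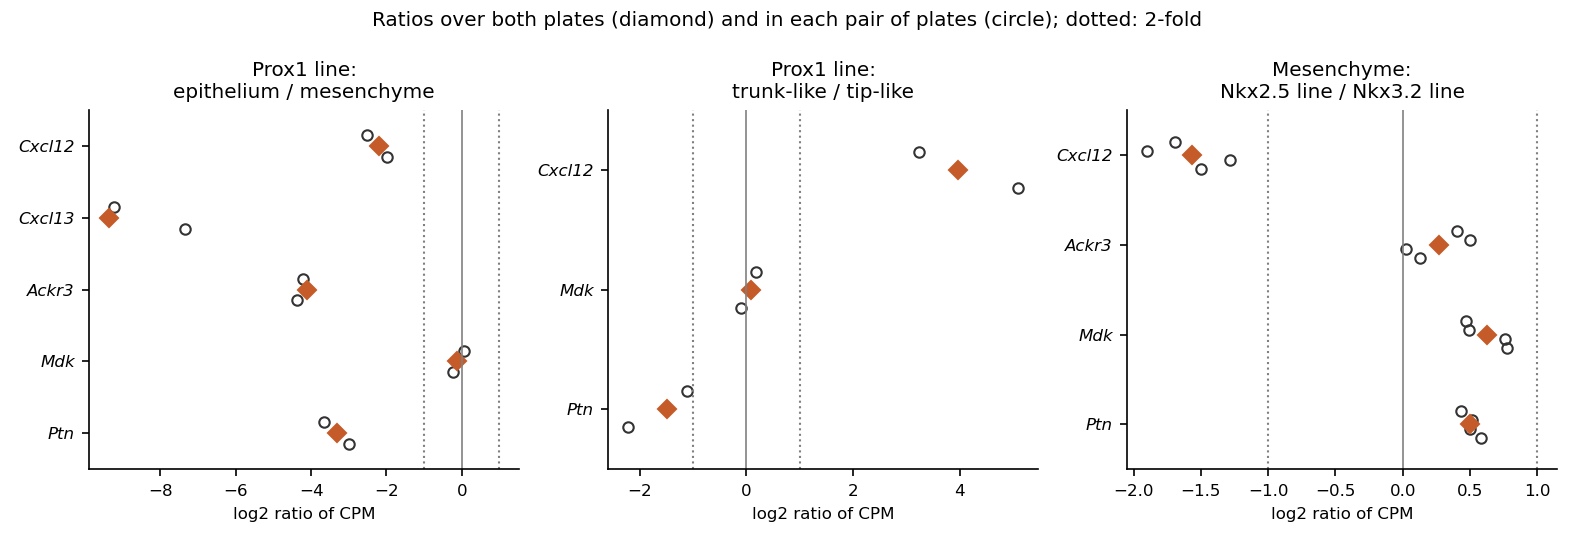
Log2 ratios of CPM (x axis) for the genes that reached 10 CPM (y axis) in 3 comparisons, over both plates (diamond) and for each pair of plates (circle), with dotted lines at 2-fold. Cxcl12 is to the left of 0 for epithelium against mesenchyme and to the right for trunk-like against tip-like cells. Mdk lies within the dotted lines in all 3 panels. The ratios of Cxcl13 are set by a floor of 3 counts and are not bounds.

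In the endocrine-like cells, Cxcl12 was not found on plate 8A (0 of 8 cells, or under 0.486 CPM at a floor of 3 counts) and stood at 18.8 CPM on plate 8B (4 of 10 cells). The pooled level was 11.2 CPM, 4.70-fold under the other epithelial-like cells. Cxcl12 and Ptn, 2 of the 7 genes, were called lower in endocrine-like cells, beside 17.1% of the 11077 genes tested, and none was called higher, beside 13.3% (30.4% in either direction). By plate, Cxcl12 was 128.1-fold lower on plate 8A, a ratio set by the floor of 3 counts and not a bound, and 2.19-fold lower on plate 8B. On plate 8A a count was found in 0 of 8 endocrine-like cells (0 to 36.9%). It was found in 32% of the 50 other epithelial-like cells there (19.5 to 46.7%), so that the intervals of the shares overlap. The Cxcl12 call was lost with the size factors of DESeq2 and with classes given cell by cell.

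Cxcl13, best known as the B cell chemoattractant that binds Cxcr5, was found in 24 of 546 cells. No count was seen in the Nkx2.5 mesenchyme cells (0 of 87 and 0 of 81 by plate), which over both plates allows a share of up to 1.79% at a floor of 3 cells and a level of up to 0.0175 CPM at a floor of 3 counts. In the Nkx3.2 mesenchyme 9 cells (5.36%) held it, at 4.90 and 2.29 CPM by plate. In the Prox1 mesenchyme 8 of 77 cells held it, at 45.3 and 14.5 CPM. On plate 8A 1 cell carried 53.3% of the counts, and the level without it was 21.9 CPM. On plate 8B 1 cell carried 94.7% of the counts, and the level without that cell was 0.781 CPM. None of the 87 epithelial-like cells held a count, which allows up to 4.15% of the cells by the exact interval. At a floor of 3 counts the group would stand at 0.0408 CPM. The Prox1 mesenchyme was 660-fold above that floor, and 598- and 163.6-fold above the floors of plates 8A and 8B. These ratios depend on the floor and on the few cells with Cxcl13, so that they are not lower bounds.

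The Cxcl13 cells were unevenly spread over the clusters. Cluster 10 (Igf1, Gabrb1) of the Prox1 line held 5 of 19 cells and 105.45 CPM, and the Nkx3.2 cells of cluster 5 held 6 of 30 and 18.4 CPM. Without the highest cell of each, these levels were 66.6 and 9.66 CPM. Among mesothelial-like cells it was found in 5 of 23 from the Nkx3.2 line and in 2 of 5 from the Nkx2.5 line, the only Nkx2.5 cells with a count. Cells with Cxcl13 carried between 1 and 576 counts of it. Of the mesenchyme cells with Cxcl13, 8 of 9 in the Nkx3.2 line and 6 of 8 in the Prox1 line also held Cxcl12.

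Cxcl14, a chemokine of epithelia and fibroblasts, was nearly absent. It was found in 1 Nkx2.5 mesenchyme cell with 22 counts and in 4 Nkx3.2 mesenchyme cells with 14 to 37 counts. No cell of the Prox1 line held a count. At 0.551 CPM or less in each class it reached the 10 CPM minimum in no comparison.

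Cxcr4, the signalling receptor of Cxcl12, was close to the detection limit in all classes. In the 546 cells 66 counts were found, in 12 cells with 1 to 32 counts each. Of the epithelial-like cells 3 of 87 held it (3.45%, 0.717 to 9.75%), all tip-like and on plate 8B, with 1, 2 and 3 counts and a class level of 0.0816 CPM. None of the 31 trunk-like cells and none of the 18 endocrine-like cells held a count, the latter allowing up to 0.197 CPM at the same floor of 3 counts. The highest class level, 0.746 CPM in the Prox1 mesenchyme, came to 72.7% from 1 cell with 32 counts. Cxcr4 did not reach the 10 CPM minimum in any comparison, so that no difference in it was tested.

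Ackr3, the atypical receptor of Cxcl12, was found on the mesenchymal side and was low in the epithelium. The Nkx2.5 mesenchyme stood at 77.8 and 59.9 CPM by plate, the Nkx3.2 mesenchyme at 58.9 and 54.9 CPM and the Prox1 mesenchyme at 51.01 and 23.2 CPM. The epithelial-like cells stood at 2.75 and 1.12 CPM, with a count in 5 of 87 cells, and the endocrine-like cells held none in 18. Every mesenchyme plate was above both epithelial plates. Within the Prox1 line the mesenchyme was 17.2-fold higher, and 18.5- and 20.7-fold higher by plate.

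Between the Nkx2.5 and Nkx3.2 mesenchymes the Ackr3 level differed 1.21-fold, from 1.02- to 1.42-fold over the plate pairs, and was not called. A count was found in 33.9% of the Nkx2.5 cells (26.8 to 41.6%) and in 48.2% of the Nkx3.2 cells (40.5 to 56.04%), so that the share and the level did not run in the same direction. Within cluster 6 Ackr3 stood at 8.20 CPM in the Nkx2.5 cells and at 47.6 CPM in the Nkx3.2 cells, 5.81-fold apart, with plate pairs from 2.91- to 19.7-fold. As for Cxcl12 in this cluster, the highest pair used the floor of 3 counts on the smaller Nkx2.5 plate, so that the pairs are uneven. Of the Nkx2.5 cells 1 held 92.4% of the counts, and without it they stood at 0.669 CPM. This was the cluster in which Cxcl12 was also lowest in the Nkx2.5 line. In cluster 0 the pooled levels were the other way round, at 81.9 and 35.8 CPM, but 1 of 4 plate pairs was reversed.

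The mesothelial-like cells held as much Ackr3 as the mesenchyme or more. In the Nkx3.2 line they stood at 69.4 and 111.2 CPM, with a count in 16 of 23 cells, 1.81-fold over the mesenchyme of the line. The plate ratios were 1.178- and 2.02-fold, and plate 7A held 3 mesothelial-like cells, so that Ackr3 was not called. In the 5 mesothelial-like cells of the Nkx2.5 line it stood at 244 CPM. The comparison of mesothelium with mesenchyme was added after the levels had been seen.

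Cxcl12 and Ackr3 were found both together and apart in single cells. In the Nkx2.5 mesenchyme thinned to 100000 counts, Ackr3 was held by 39.2% of the cells with Cxcl12 and by 24.7% of those without. In the Nkx3.2 mesenchyme the shares were 46.3% and 47.1%, and in the Prox1 mesenchyme 33.3% and 28.9%. With Spearman coefficients across cells of 0.20, 0.03 and 0.02, the counts of the pair were weakly related in the Nkx2.5 mesenchyme and close to unrelated in the other lines.

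Mdk, a growth factor of the embryonic epithelium and mesenchyme, was found in all 546 cells. The Nkx2.5 mesenchyme stood at 965 and 1175 CPM, that of Nkx3.2 embryos at 696 and 686 CPM and that of Prox1-GFP embryos at 806 and 968 CPM. The epithelial-like cells stood at 833 and 820 CPM, within the range of the Prox1 mesenchyme. The difference there was 1.09-fold, and the 2 plates pointed in opposite directions. Between the Nkx2.5 and Nkx3.2 mesenchymes Mdk was 1.54-fold higher in the Nkx2.5 line, with all 4 plate pairs between 1.39- and 1.71-fold, and so under the 2-fold rule. Endocrine-like cells stood at 579 and 844 CPM, and tip-like and trunk-like cells at 812 and 858 CPM, so that no epithelial class stood apart.

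Ptn, the second member of the family, was graded over the classes. The Nkx2.5 mesenchyme stood at 1757 and 1834 CPM, the Nkx3.2 mesenchyme at 1300 and 1228 CPM and the Prox1 mesenchyme at 1474 and 1210 CPM, and it was found in every mesenchyme cell except 1 of the 77 in the Prox1 line. The Nkx2.5 line was 1.41-fold above the Nkx3.2 line, from 1.35- to 1.49-fold over the plate pairs, and was not called. The Nkx3.2 and Prox1 mesenchymes did not differ beyond their plates. Mesothelial-like cells of the Nkx3.2 line stood at 390 and 257 CPM, 4.53-fold under the mesenchyme of the same line (3.33- and 4.78-fold by plate). Ptn was the 1 of the 7 genes called lower in the mesothelium, beside 8.03% of the 10602 genes tested, and none was called higher, beside 6.1% (14.1% in either direction).

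Ptn was lower in the epithelium, and between tip-like and trunk-like cells it ran opposite to Cxcl12. The epithelial-like cells stood at 117.2 and 151.97 CPM, 9.88-fold under the Prox1 mesenchyme and 12.6- and 7.96-fold by plate. Tip-like cells stood at 150.1 and 182.7 CPM and all 56 held it, while trunk-like cells stood at 69.5 and 39.3 CPM and 15 of 31 held it. The difference was 2.78-fold, and 2.16- and 4.65-fold by plate. Ptn was the 1 of the 7 genes called higher in tip-like cells, beside 3.46% of the genes tested. In the endocrine-like cells 4 counts were found in all, in 3 of 18 cells, and the level of 0.263 CPM (0.0717 to 0.674) was 506-fold under that of the other epithelial-like cells. By plate, with counts under 3 set to 3, the endocrine-like cells were 241- and 343-fold lower.

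Levels of different genes were compared per kilobase of the median coding transcript. In the epithelial-like cells Mdk (1071 CPM per kb) was above Ptn (63.9 CPM per kb), and stayed above it with the shortest or longest transcript in place of the median. In the Nkx2.5 mesenchyme Mdk stood at 1381 and Ptn at 860 CPM per kb, and the ranges given by the transcript lengths overlapped. Cxcl12 stood at 140 CPM per kb in the Nkx3.2 mesenchyme, below both growth factors there (896 and 610 CPM per kb), and Ackr3 stood at 33.1 CPM per kb, with a range that overlapped that of Cxcl12. Mdk and Ptn were thus the most abundant of the 7 transcripts per length in the mesenchyme of each line.

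The other CXC ligands and receptors were low, whereas most partner genes of Cxcr4 were expressed. Of 12 further CXC ligands and 9 further receptors of the CXC and atypical group, none reached 10 CPM in a class that was compared, so that none was tested. Low was not always 0: Cxcr2 stood at 6.31 CPM in the Nkx2.5 mesenchyme, with a value above 0 in 70.2% of the cells. In the epithelial-like cells it stood at 4.32 CPM, with a value above 0 in 78.2%. The summed Cxcr2 counts of these classes, 1080.68 and 317.764, were not whole, so that part of them came from reads shared between transcripts. The size of that part was not tested, and Cxcr2 is not taken here as expressed in these cells. Of 12 partners and signalling genes of Cxcr4, 8 were tested between epithelium and mesenchyme. Gnai1, an inhibitory G protein subunit, was called higher in the epithelial-like cells, at 44.9 and 7.88 CPM in epithelium and mesenchyme (5.70-fold), 1 of 8 beside 11.2% of all genes tested. None of 9 was called between the Nkx2.5 and Nkx3.2 mesenchymes, where the median log2 ratio was 0.05 beside 0.01 over all genes tested.

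In the endocrine-like cells 4 of 9 tested partners were called higher, beside 13.3% of all genes tested, and 2 lower, beside 17.1%, than in the other epithelial-like cells. The median log2 ratio was 1.176 beside -0.124 over all genes tested. Dpp4, a peptidase that cleaves Cxcl12, stood at 160 and 31.8 CPM in endocrine-like and other epithelial-like cells. Rgs16, which shortens G protein signals, stood at 13.2 and 0.109 CPM. Gnai2 and the receptor kinase Grk2 were the other 2 called higher, at 3.197- and 2.26-fold. Mif (3.04-fold) and Hmgb1 (4.25-fold) were called lower.

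Receptors and co-receptors of the midkine family were found on both sides. Of 22 genes, 17 were tested in the Prox1 line, with 2 called higher in the epithelial-like cells, beside 11.2% of all genes tested, and 5 higher in the mesenchyme, beside 10.6%. The median log2 ratio was -0.50 beside 0.00 over all genes tested. The proteoglycan Sdc4 stood at 301 CPM in epithelium and 56.7 CPM in mesenchyme, and the laminin receptor subunit Itga6 at 152.3 and 28.2 CPM. The endocytic receptor Lrp1 was 9.71-fold higher in the mesenchyme, at 150.1 against 15.5 CPM, and the receptor phosphatase Ptprs was 2.88-fold higher, at 165.3 against 57.3 CPM. Sdc2, Sdc3 and Gpc6 were the other 3 on the mesenchymal side. The receptor phosphatase Ptprz1 and the kinases Alk and Ltk, well-known receptors of the family, were at 1.31 CPM or less in the epithelial-like cells.

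**Figure D5:**
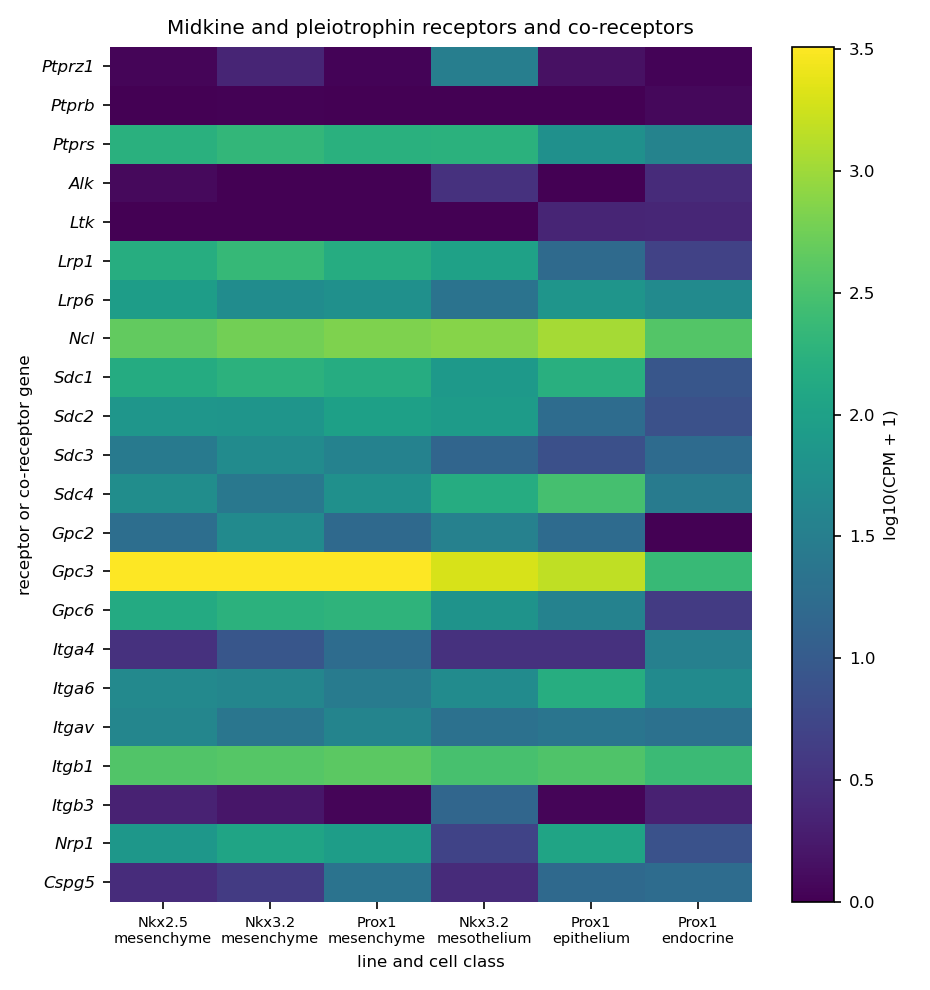
Levels of the 22 midkine and pleiotrophin receptors and co-receptors (rows) by line and class (columns), as log10(CPM + 1) in colour. Sdc4 and Itga6 are brighter in epithelial-like cells than in the mesenchymes, and Lrp1 is the reverse. Ptprz1 stands out in the Nkx3.2 mesothelial-like cells at 30.9 CPM, with a count in 26.1% of them.

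Several of these receptors were lower in endocrine-like cells. Of 17 tested, 8 were called lower than in the other epithelial-like cells, beside 17.1% of all genes tested, and 2 higher, beside 13.3%. The median log2 ratio was -1.52 beside -0.124 over all genes tested. Sdc1, a syndecan of epithelia, was 21.7-fold lower (7.56 against 164.5 CPM), Nrp1 was 16.8-fold lower and Sdc4 was 10.8-fold lower. The integrin subunit Itga4 was 15.7-fold higher, at 33.3 against 2.12 CPM, and Sdc3 was 2.56-fold higher. In mesothelial-like cells of the Nkx3.2 line 3 of 17 were called higher than in mesenchyme (Ptprz1, Sdc4 and Itgb3), beside 6.1% of all genes tested. There 4 were called lower, beside 8.03%, among them Nrp1 at 4.07 against 111.8 CPM. Plate 7A held 3 of these 23 mesothelial-like cells, so that its part of each call rests on few cells. Ptprz1 and Itgb3 had a count in 26.1% and 21.7% of the 23 cells, and Sdc4 in 95.7%. Between the Nkx2.5 and Nkx3.2 mesenchymes 1 of 15 was called, the proteoglycan Gpc2, at 17.8 and 46.04 CPM, beside 1.97% of all genes called higher in the Nkx3.2 line. Trunk-like cells were higher than tip-like cells in 2 of 16, Gpc2 and Cspg5, beside 5.47% of all genes tested.

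Likeness of pattern was measured over 19 groups of line and cluster with 8 or more cells, as Pearson's r of log2(CPM + 1) among 11458 genes. The groups share libraries and embryos, so r is given as a description. They span mesenchymal, mesothelial, epithelial and endocrine clusters, so that r also holds the differences between these classes. The genes closest to Ptn were Gpc3 (r = 0.99), Lgals1 (0.97) and Nsg1 (0.97), and those closest to Ackr3 were Ccn4 (0.92), Plat (0.92) and Gli3 (0.91). For Cxcl12 they were Bcl9l (0.87), Tsc22d4 (0.86) and Igf2 (0.86), and for Mdk they were St13 (0.89), Gnb1 (0.88) and Tmf1 (0.88). For Cxcl13, present in few groups, they were Sulf1 (0.74), Csdc2 (0.73) and Sptb (0.73). Cxcl14 and Cxcr4 were not at 10 CPM in 3 groups and have no value. Among the remaining members the closest pair was Ackr3 and Ptn (0.81), followed by Cxcl12 and Ackr3 (0.76), whereas Mdk lay between -0.20 and 0.24 with the others.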

How the data were processed

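Per the labels and the study's methods, the authors trimmed reads (Trim Galore 0.6.5 in the submitters' processing notes), pseudoaligned them to GRCm38 transcripts with kallisto and summed them to genes with tximport. The deposited values are estimated counts per gene and cell, without molecular identifiers, so that amplified copies of 1 molecule count separately. The annotation release is not given in the sources used here. Ambiguous reads are shared between transcripts, and 5.26% of Ptn and 0.916% of Mdk values above 0 were not whole, against none for the other 5 genes. No column of the tables was unmatched to a sample, and no 2 cells had identical columns.

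Cells were kept with 1000 genes or more, 100000 counts or more and no more than 30% of counts from the mitochondrial genome. They were clustered with Seurat 5.3.0 under R 4.3.3 (2000 variable genes without the 7 genes and their 55 pathway genes, 20 components, resolution 1.9) and named from marker lists. No doublet caller was run, because each well was sorted as a single cell, and 3 cells with markers of another class were left out. Classes given cell by cell from the markers agreed for 543 of 549 cells, and 11 cells had their 2 highest marker levels within 0.1.

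Counts were summed by line, plate and class and divided by the summed library size (CPM). Cells are not replicates, so ratios were computed between plates within a line, or over the 4 plate pairs between lines, with counts under 3 set to 3. A call needed 10 CPM in either group and 2-fold in the same direction overall and in every pair. The rule was run before use on simulated counts with known changes. These held no difference between plates, so that they cannot check the rule against plate differences. Shares of cells used at least 1 count, with exact Clopper-Pearson intervals (SciPy 1.17.1), and were repeated after thinning to 100000 counts per cell. Genes named beside the 7 are the called genes of the pathway lists, a few with the best known roles or the widest change, and the 3 genes closest in pattern to each of the 7 except Cxcl14 and Cxcr4. The 7 genes, the marker lists and the pathway lists were chosen with earlier results of these data known. Alternatives were TMM factors (edgeR 4.0.16), DESeq2 1.42.0 size factors, the mean of per-cell CPM, thinning, other filters on cells and on low values, other folds, other class definitions and leaving out each plate.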

Additional observations from a re-analysis of the deposited data

How the results depend on the processing

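No paired analysis was possible because the plates of different lines share no number, animal or litter in the labels, and classes of 1 line were compared plate by plate. Of the alternative values of the log2 ratios of the 7 genes, 8 lost the call, 4 gained one and none changed sign after being called. A further 352 kept the call or, where none was made, stayed within the plate spread, and 29 uncalled values moved by more. The size of called ratios was not part of this count. That of Cxcl12 between endocrine and other epithelial cells ran from -7.00 to -1.13.

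Counts of the 7 genes called were 4 (epithelium against mesenchyme), 1 (Nkx2.5 against Nkx3.2 mesenchyme), 2 (endocrine against other epithelium), 1 (mesothelium against mesenchyme) and 2 (trunk-like against tip-like). They moved to 2 between epithelium and mesenchyme at a minimum of 50 CPM, which Cxcl13 and Ackr3 do not reach. Between the Nkx2.5 and Nkx3.2 mesenchymes they moved to 2 at a minimum of 1 CPM, where Cxcl13 was added, and to 0 at 3-fold and in the 4 clusters shared by both lines. Between endocrine and other epithelial cells they moved to 3 at a minimum of 1 CPM, where Ackr3 was added, and to 1 with DESeq2 size factors, with classes given cell by cell and at 3-fold, and between trunk-like and tip-like cells to 1 at 3-fold. Leaving out a plate gave 1 to 3 for mesothelium against mesenchyme, with 3 (Ptn, Ackr3 and Cxcl13) when plate 7A, with its 3 mesothelial-like cells, was left out. Under the stricter filter on cells the new clusters left 1 of the 2 classes of the endocrine comparison without cells, so that no value could be had there.

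Of all genes tested, 21.8%, 3.28%, 30.4%, 14.1% and 8.93% were called in the same order of comparisons. At a minimum of 1 CPM the share was 6.12% for the Nkx2.5 and Nkx3.2 mesenchymes and 13.7% for trunk-like against tip-like cells, and at 50 CPM the latter was 5.24%. At 1.5-fold the shares were 11.5% between the mesenchymes, 23.1% for mesothelium and 18.9% for trunk-like cells, and at 3-fold they were 0.76%, 9.08% and 4.05%, with 19.1% for endocrine cells. Without 1 plate they ranged over 32.1 to 33.4%, 5.93 to 12.7%, 48.8 to 49.3%, 26.4 to 45.6% and 22.4 to 36.6% in the order above, since fewer plates then have to agree. Over the first 3 comparisons the pathway genes received 25 calls, and 15 at a minimum of 50 CPM. Of the 42 levels by gene, line and class, 23 were at 10 CPM or more. Cxcl13, Cxcl14 and Cxcr4 rest on few cells, and 1 cell carried 53.3% of the epithelial-like Cxcl12 counts on plate 8B.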
